A study of Homo sapiens with 16 samples.

Results

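Aminoacyl-tRNA synthetases are the enzymes that load each amino acid onto its matching tRNA. The group described here holds the listed cytosolic and mitochondrial synthetases and AIMP1 and AIMP2, scaffold proteins that hold several cytosolic synthetases in one complex. The members were chosen by function after a measured value: the group was selected on the signal of 1 of them, the valine enzyme VARS1, which stood higher in cells carrying KLF5 hairpins. The question was whether the other members did the same. Of 37 listed genes, 36 were among the 11282 genes of the deposited table: 19 cytosolic enzymes, 15 mitochondrial enzymes and the 2 scaffold genes. AARS2 was not analysed here. All 36 passed the filter on low values, which kept a gene if 2 or more libraries reached 5, and were part of the 10826 genes tested.

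RNA was measured in 16 libraries of HCC70, an established basal-like breast cancer cell line from a commercial collection, grown in multiwell plates and infected with short hairpin RNA (shRNA) constructs. The control libraries numbered 8: 2 labelled plko and 2 each labelled shRFP, shLACZ and shLUC. The other 8 libraries were 2 each for hairpins against KLF5, RBPJ, NFIB and FOXA1, which encode transcription factors. In the labels each library, controls included, has a construct identifier of its own, so by the labels the libraries of a pair carry different constructs. The series concerned regulators of cell composition in basal-like cancer. The labels do not say whether libraries of a group came from separate cultures, so p-values measure only the spread between these libraries. All cells were of 1 line, and each library was made from bulk RNA, in which a change in the mix of cells and a change in RNA per cell cannot be told apart.

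Charging uses ATP to join an amino acid to its tRNA, and the charged tRNA is what the ribosome reads. Cytosolic enzymes supply translation in the cytoplasm, while nuclear genes with names ending in 2 mostly encode separate enzymes imported into mitochondria. Several cytosolic enzymes, among them the glutamate-proline enzyme EPRS1 and the methionine enzyme MARS1, sit with AIMP1 and AIMP2 in a multi-synthetase complex. A large subset of the cytosolic genes is known to be induced by ATF4, the transcription factor of the amino acid stress response, which binds a C/EBP-ATF response element. That subset is taken here, from background knowledge, as 12 genes: AARS1, CARS1, EPRS1, GARS1, IARS1, LARS1, MARS1, NARS1, SARS1, TARS1, WARS1 and YARS1.

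The response element was looked for as TGATGNAA on either strand (TTNCATCA on the other), in RefSeq promoter windows of 300 bases, 250 before to 50 after each gene's start (GRCh38.p14). Windows were found for 32 of the 36 members. VARS1, VARS2, LARS1 and YARS1 had no entry. The letters occurred in 8 of the 32, against 4.457% of all 27305 genes with a window. Of these 8, 7 belonged to the 10 ATF4-linked genes with an entry and 1 was mitochondrial (YARS2). None was among the 6 other cytosolic genes. EPRS1, SARS1 and WARS1, also ATF4-linked, had windows without a match. The subset was taken as ATF4-induced beforehand, so the matches in it are background and no result of these libraries. The stretches are shown because the ATF4-linked genes moved together between libraries, as described further on. Each is printed 5′ to 3′ on the gene's strand with the match in capitals.
TARS1, chr5:33440957-33440984, plus strand: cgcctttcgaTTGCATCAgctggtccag
GARS1, chr7:30594835-30594862, plus strand: tacgcggcgaTTTCATCAtgctccgagc
IARS1, chr9:92293693-92293720, minus strand: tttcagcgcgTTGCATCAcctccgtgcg
CARS1, chr11:3057408-3057435, minus strand: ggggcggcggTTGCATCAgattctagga
MARS1, chr12:57488054-57488081, plus strand: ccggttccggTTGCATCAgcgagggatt
AARS1, chr16:70289676-70289703, minus strand: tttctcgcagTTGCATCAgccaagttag
NARS1, chr18:57621805-57621832, minus strand: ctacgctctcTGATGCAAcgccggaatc
YARS2, chr12:32756077-32756104, minus strand: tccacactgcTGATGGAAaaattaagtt
A match is a run of letters, not a shown binding site. CACCC, the core read by KLF-type factors (GGGTG on the other strand), was in 19 of the 32 member windows and in 63.11% of all genes' windows.

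Values are the deposited normalised signal, and total reads per library ran from 375713 (plko 1) to 3090666 (RBPJ 1), a range of 8.23-fold with a median of 1164801.5. The median number of reads per library was 34 to 374.5 for the cytosolic members and 5.5 to 113.5 for the mitochondrial ones, and 5 of 15 mitochondrial members had a library with under 3 reads. KLF5 itself was at 62.56 and 37.34 in its hairpin libraries and at 70.60 to 112.3 in the controls. RBPJ was at 43.26 and 8.535 against 43.12 to 68.39 in the controls, NFIB at 237.8 and 42.19 against 308.5 to 607.2, and FOXA1 at 24.36 and 58.58 against 67.58 to 163.0. The targeted transcript thus lay below every control in 7 of 8 target libraries. It lay inside the control range in the library labelled RBPJ 1. The line's epithelial markers were all in the table: the 12 summed to 4227 to 9663 in the controls and 6161 to 6940 in the KLF5 libraries. Within that list 2 of 12, KRT8 and KRT18, were past the threshold as lower with KLF5 hairpins, and the list's median difference was -0.35. KRT8 was at 13.51 and 12.83 in the KLF5 libraries, at 22.06 and 14.25 in plko and at 177.4 to 255.8 in the 6 hairpin controls.

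VARS1, which charges valine tRNA, stood at 214.7 and 183.2 in the KLF5 libraries, from 302 and 157 reads. In the 8 controls its lowest, median and highest values were 34.27, 43.07 and 65.68, from 19 to 106 reads per library. Both KLF5 libraries lay above all 14 others, whose range was 30.75 to 65.68. The log2 difference from the controls, on log2(value + 1) as for all differences here, was 2.07 ± 0.23 (SE, as after every difference; 2 libraries against 8), at percentile 99.9 of the genes tested. It was 2.29 ± 0.24 against the mean of the other 3 targets. That difference takes no value from the controls, but its SE rests on the spread in all 16 libraries, controls included. These values led to the choice of the members and are given without a test. With 1 KLF5 or control library left out, or another pseudocount, scaling, tool or set of controls, the difference from controls stayed between 1.90 and 2.18. Other settings, such as the filter, could not move it. The range describes the value that chose the members and is no support for it. VARS1 made up 10.55% and 8.636% of the summed cytosolic synthetase signal in the KLF5 libraries and 1.006% to 3.029% in the other 14.

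**Figure D1:**
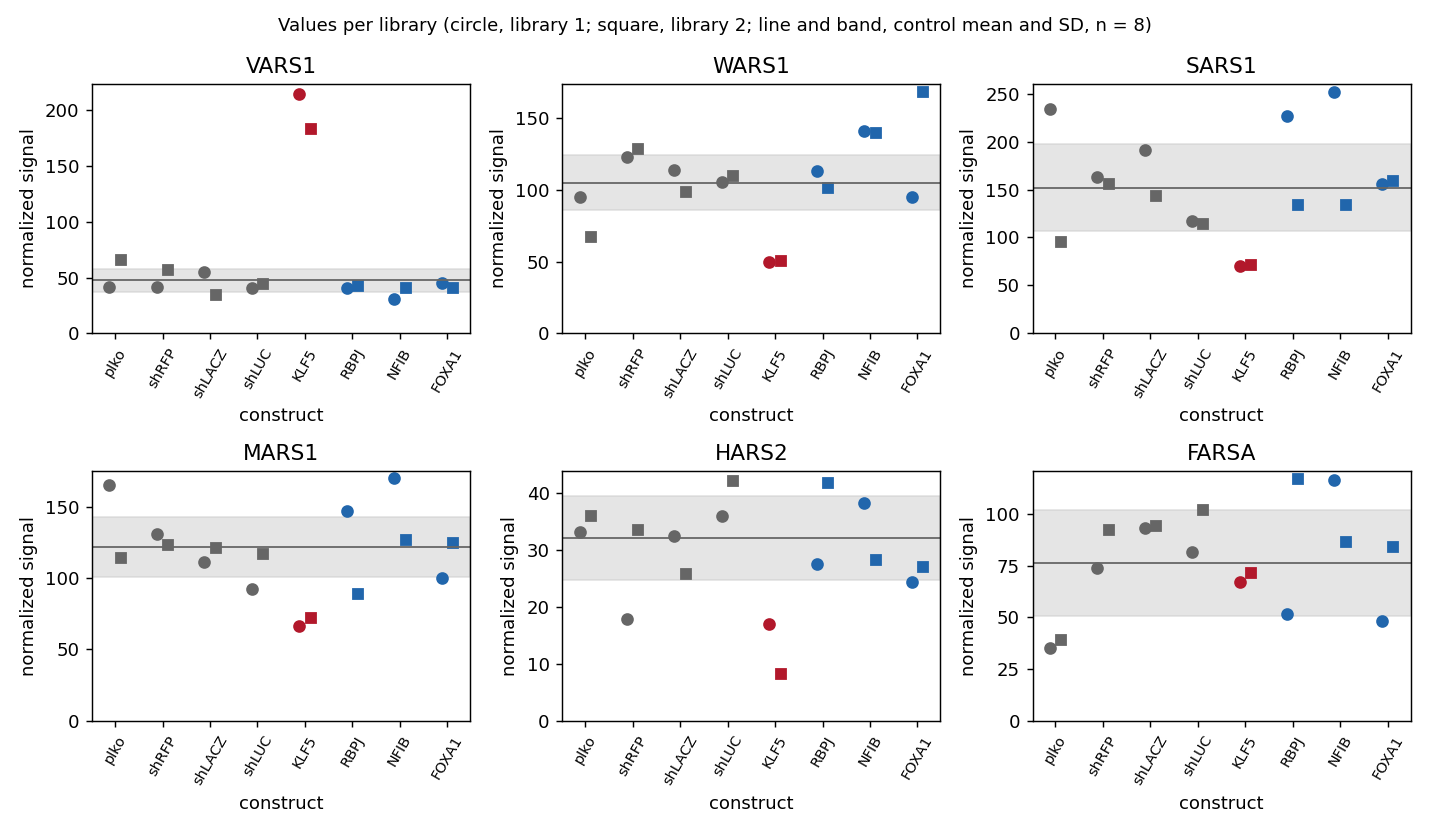
Deposited normalised signal of selected synthetase genes in each of the 16 libraries, 1 point per library by construct, with the control mean and SD (n = 8) as line and band. VARS1 reached 214.7 and 183.2 with KLF5 hairpins against at most 65.68 elsewhere, while WARS1, SARS1, MARS1 and HARS2 had their lowest values in the KLF5 libraries.

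VARS2, the mitochondrial valine enzyme, gave no such value: 5.687 and 7.001 in the KLF5 libraries and 2.206 to 11.78 in the controls (log2 difference 0.05 ± 0.44). Values this low rest on few reads, and a change smaller than that error would not be seen. The genes beside VARS1 in the RefSeq annotation differed in their values. LSM2, an RNA-binding subunit, was at 66.11 and 77.01 against 89.49 to 134.6 in the controls, below all of them. The heat shock gene HSPA1A was at 525.3 and 495.9 against 296.6 to 399.5, above all of them. Its near-identical neighbour HSPA1B was at 78.91 and 60.67 against 37.40 to 52.94, and reads of the pair may have been split between them. HSPA1B was above all controls as well with RBPJ (78.57 and 119.5) and NFIB hairpins (93.62 and 119.4). With FOXA1 hairpins too, LSM2 was below all controls (77.69 and 78.11) and HSPA1A above all of them (419.4 and 413.1). HSPA1L was at 2.844 and 8.167 with KLF5 hairpins, inside its control range of 0 to 13.24. VWA7 was not analysed here.

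No other member stood above all controls in both KLF5 libraries, and most stood lower. Across all genes, 2.3% were called higher and 3.07% lower at a limma adjusted p under 0.05 in this comparison, 5.37% in all. Of the 35 members other than VARS1, 0 were past that threshold as higher and 4 as lower: WARS1, SARS1, MARS1 and HARS2. Because the list came from this comparison, nothing is read from these counts. Among the 35 members other than VARS1, 25 differences were negative, 71.4% against 46.5% of all genes tested. Their median was -0.18, against 0.05 over all genes. Both KLF5 libraries lay below every control for 10 of the 35 and above every control for 0, where 6.96% and 9.31% of all genes did so. The 10 were HARS2, WARS1, SARS1, RARS2, MARS1, CARS1, IARS2, AIMP2, EPRS1 and RARS1.

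Among the cytosolic enzymes, 15 of the 18 other than VARS1 were lower with KLF5 hairpins, with a median difference of -0.28. WARS1, the tryptophan enzyme, was at 49.76 and 50.17 in the KLF5 libraries. Its controls ran from 66.92 through a median of 107.4 to 128.2, so the KLF5 values were 47.36% and 47.75% of the control mean and the log2 difference was -1.03 ± 0.23. SARS1, the serine enzyme, was at 70.38 and 71.17 against 94.80, 149.6 and 233.9 as lowest, median and highest control. Its difference was -1.03 ± 0.28, and its controls spread over a wider range than those of WARS1. MARS1 was at 66.82 and 72.34 against 92.64, 119.0 and 165.5, a difference of -0.79 ± 0.22. All 3 were below every one of the other 14 libraries.

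The smaller differences were graded. CARS1, the cysteine enzyme, was at 26.30 and 18.67 against 27.10 to 59.57, just under the lowest control in 1 library. EPRS1 was at 130.8 and 108.5 against 146.2 to 324.3, and RARS1, the arginine enzyme, at 61.14 and 67.67 against 76.88 to 103.7. FARSB, the beta subunit of the phenylalanine enzyme, was at 73.22 and 112.0 against 99.28 to 162.9, so 1 of its KLF5 libraries was inside the control range. Its partner subunit FARSA was at 66.82 and 71.17, inside the control range of 35.30 to 102.0. At the other end KARS1, which charges lysine tRNA, was at 254.5 and 289.4 against 222.8 to 293.1, and HARS1, the histidine enzyme, at 33.41 and 28.00 against 18.30 to 37.51. The KLF5 values of both lay within their controls.

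The 9 members of the multi-synthetase complex, scaffolds included, had a median difference of -0.47, with 7 of 9 negative. AIMP2 was at 86.02 and 88.67 against 91.08, 128.9 and 158.1 as lowest, median and highest control. AIMP1 was at 70.38 and 74.67 against 66.19 to 92.09, inside the controls. The 12 ATF4-linked genes all had negative differences, with a median of -0.42 and a range of -1.03 to -0.00736. AARS1 was at 108.1 and 122.5, inside its controls at 81.79 to 167.7. In KLF5 2, 1 of the 12 lay above the control mean. All 12 differences were negative as well with a pseudocount of 0.5 or 5, with the same total in every library, by quantile normalization, by edgeR and by DESeq2. With the 6 hairpin controls alone 11 of 12 were lower. Changes of filter cannot alter these differences, and every setting reuses the same KLF5 libraries. Without VARS1, the cytosolic enzymes summed to 1820 and 1938 in the KLF5 libraries and to 2065 to 3026 in the other 14.

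The mitochondrial enzymes were mixed, with 8 of 15 lower and a median of -0.13. HARS2, the mitochondrial histidine enzyme, was at 17.06 and 8.167 against 17.85, 33.32 and 42.18 as lowest, median and highest control, a difference of -1.32 ± 0.30. KLF5 library 1 was thus just under the lowest control, and library 2 well under it. RARS2 (arginine) was at 5.687 and 4.667 against 6.803 to 22.06, and IARS2 (isoleucine) at 74.64 and 67.67 against 91.02 to 127.2. NARS2 (asparagine) and TARS2 (threonine) had the highest differences after VARS1. NARS2 was at 25.59 and 17.50 against 6.619 to 19.71 and TARS2 at 22.04 and 31.50 against 9.638 to 24.16, with log2 differences of 0.80 ± 0.35 and 0.80 ± 0.32. In each, 1 of the 2 KLF5 libraries lay inside the control range. For TARS2 that overlap came from plko 2 alone: the hairpin controls reached 18.37, and with these 6 as the only controls TARS2 was past the threshold as higher, at 0.95.

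**Figure D2:**
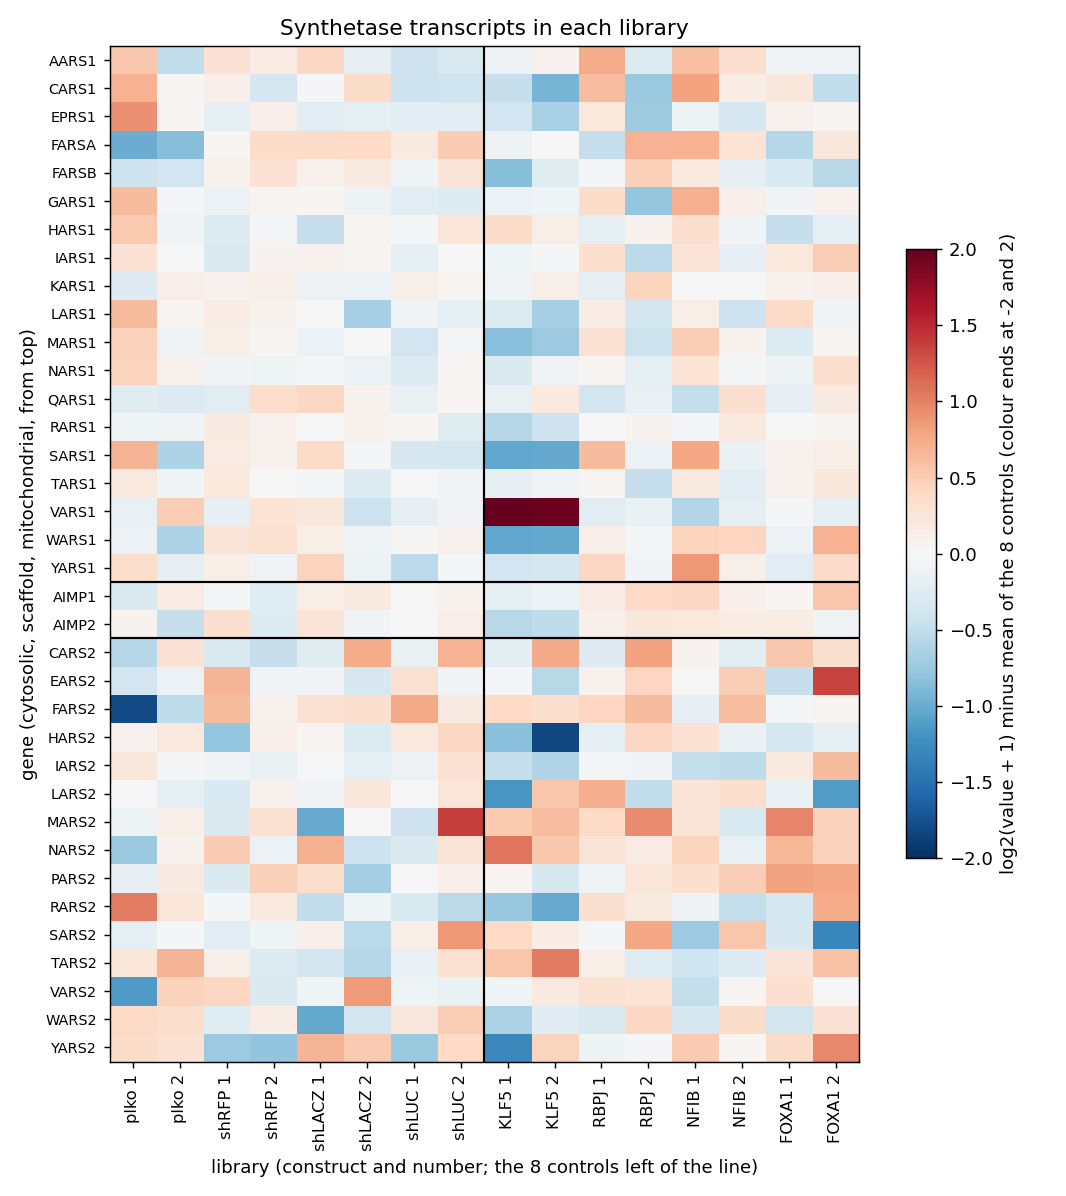
Log2(value + 1) of each of the 36 members in each library minus the mean of the 8 controls, with genes as rows ordered by compartment and libraries as columns. VARS1 is high in the 2 KLF5 libraries only, and the ATF4-linked rows are high in plko 1, RBPJ 1 and NFIB 1 and low in RBPJ 2 and KLF5.

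The 4 lower calls were lost in some smaller sets of libraries, mostly with little change in the difference. With KLF5 library 1 left out, 87 genes in all were called in place of 581, and WARS1 (-1.03), SARS1 (-1.03) and MARS1 (-0.73) no longer passed the all-gene threshold. With KLF5 library 2 left out 99 genes were called and none of the 4 was among them, at -1.04, -1.04 and -0.84 for these 3 and -0.84 for HARS2, whose difference shrank. SARS1 also missed it without either shRFP library or shLACZ 1, and MARS1 without either shRFP library, shLACZ 2 or shLUC 2. Taking plko as the only controls, SARS1 (-1.06) and WARS1 (-0.66) did not pass, while EPRS1 did. Fibroblast and endothelial markers, 5 of 11 of which were in the table, summed to 46.21 to 50.17 in the KLF5 libraries and 13.18 to 31.51 in the controls. COL1A2, DCN and PDGFRA were at 0 in some controls. The 2 leukocyte markers in the table summed to 18.48 to 23.34 against 8.825 to 34.27. The part of such cells, and of the lower KRT8 and KRT18, in these differences was not tested.

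Against the mean of the other 3 targets, 27 of 36 members were lower with KLF5 hairpins. These differences take no value from the controls, but the spread behind the calls does. In that contrast 6.61% of all genes were called, 2.74% higher and 3.87% lower. Of the 35 members other than VARS1, whose KLF5 values chose the members, 0 were past the threshold as higher. HARS2 (-1.30), WARS1 (-1.29), SARS1 (-1.26) and MARS1 (-0.82) were past it as lower. The contrast reuses the same KLF5 libraries, so these values are not a second measurement of them. Both KLF5 libraries lay below all 6 libraries of the other targets for 9 members, where 12.4% of all genes did so, and above them for VARS1 alone, where 12.2% did. The 9 included AIMP1 and AIMP2, with differences of -0.43 and -0.65.

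The hairpins against RBPJ, NFIB and FOXA1 allow a test, since the libraries of these targets did not enter the choice of members. The 3 comparisons share their 8 control libraries with each other and with the KLF5 comparison. The control values of VARS1 were thus part of that choice, which limits what the p-values of VARS1 below can show. None of the 36 members changed with RBPJ hairpins by limma at an adjusted p under 0.05, in a comparison that called 0.0277% of all genes. None passed at an unadjusted p under 0.05 either, and edgeR and DESeq2 called 0. For 0 members did both RBPJ libraries lie above all controls (2.43% of all genes) or below them (2.03%). Without the library labelled RBPJ 1, 142 genes in all were called in place of 3, and of the members 0 passed and 2 had an unadjusted p under 0.05. The differences ran from -0.25 (QARS1, the glutamine enzyme) to 0.68 (MARS2, the mitochondrial methionine enzyme). VARS1 was at 40.28 and 42.20, inside its control range, with a difference of -0.17 ± 0.23 (limma adjusted p = 0.982). VARS2 was at 7.708 and 7.587. The next lowest after QARS1 were EPRS1 (-0.25) and TARS1 (-0.21), and the next highest after MARS2 were FARS2 (0.53) and SARS2 (0.36). The 15 mitochondrial members had a median difference of 0.21, with 12 positive and 3 negative, against 0.05 over all genes.

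With NFIB hairpins 0 of 36 members passed, where 0.00924% of all genes were called, and 1 did at an unadjusted p under 0.05. The count at an unadjusted p was 2 by edgeR and 2 by DESeq2, which also called 0. That 1 member was IARS2, at 74.49 and 72.98 against 91.02 to 127.2 in the controls, with a difference of -0.49 ± 0.19 (limma adjusted p = 0.675). Both libraries were below every control, as in 2.85% of all genes. WARS1 and LARS2 lay above every control in both (3.28% of all genes), at differences of 0.44 and 0.30 that did not pass. VARS1 was at 30.75 and 40.50, a difference of -0.39 ± 0.23 (limma adjusted p = 0.766), and TARS2 differed by -0.32. The highest differences were those of YARS1 (0.50), the tyrosine enzyme, FARSA (0.48) and CARS1 (0.48). YARS1 was at 272.7 and 162.0, with 1 library above and 1 inside the control range of 103.4 to 202.7. The 12 ATF4-linked genes had a median difference of 0.31, with 9 positive and 3 negative, against 0.05 over all genes. Relative to the control mean their median was 0.47 in NFIB 1 and 0.02 in NFIB 2. The fibroblast and endothelial markers summed to 49.2 to 51.04 in the NFIB libraries, and their part was not tested.

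With FOXA1 hairpins 0 of 36 passed, again with 0.00924% of all genes called, and 2 did at an unadjusted p under 0.05. By edgeR the unadjusted count was 2 and by DESeq2 it was 1, and both tools called 0. PARS2, the mitochondrial proline enzyme, was at 13.83 and 13.52, above the controls at 4.283 to 10.78 (difference 0.79 ± 0.35, limma adjusted p = 0.958). It was the 1 member above all controls in both libraries, as 2.31% of all genes were, and 0 lay below them (2.76%). IARS2 was at 118.5 and 160.7 (difference 0.41). MARS2 (0.72) and YARS2 (0.67) were the next highest after PARS2. The lowest were SARS2 (-0.81), LARS2 (-0.63) and FARSB (-0.43). The 15 mitochondrial members had a median difference of 0.41, with 11 positive and 4 negative, against 0.004 over all genes. VARS1 was at 45.43 and 40.56, a difference of -0.12 ± 0.23. A missing call does not show that values were alike: with 2 libraries against 8, the SE of a cytosolic member's difference was 0.18 to 0.36.

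**Figure D3:**
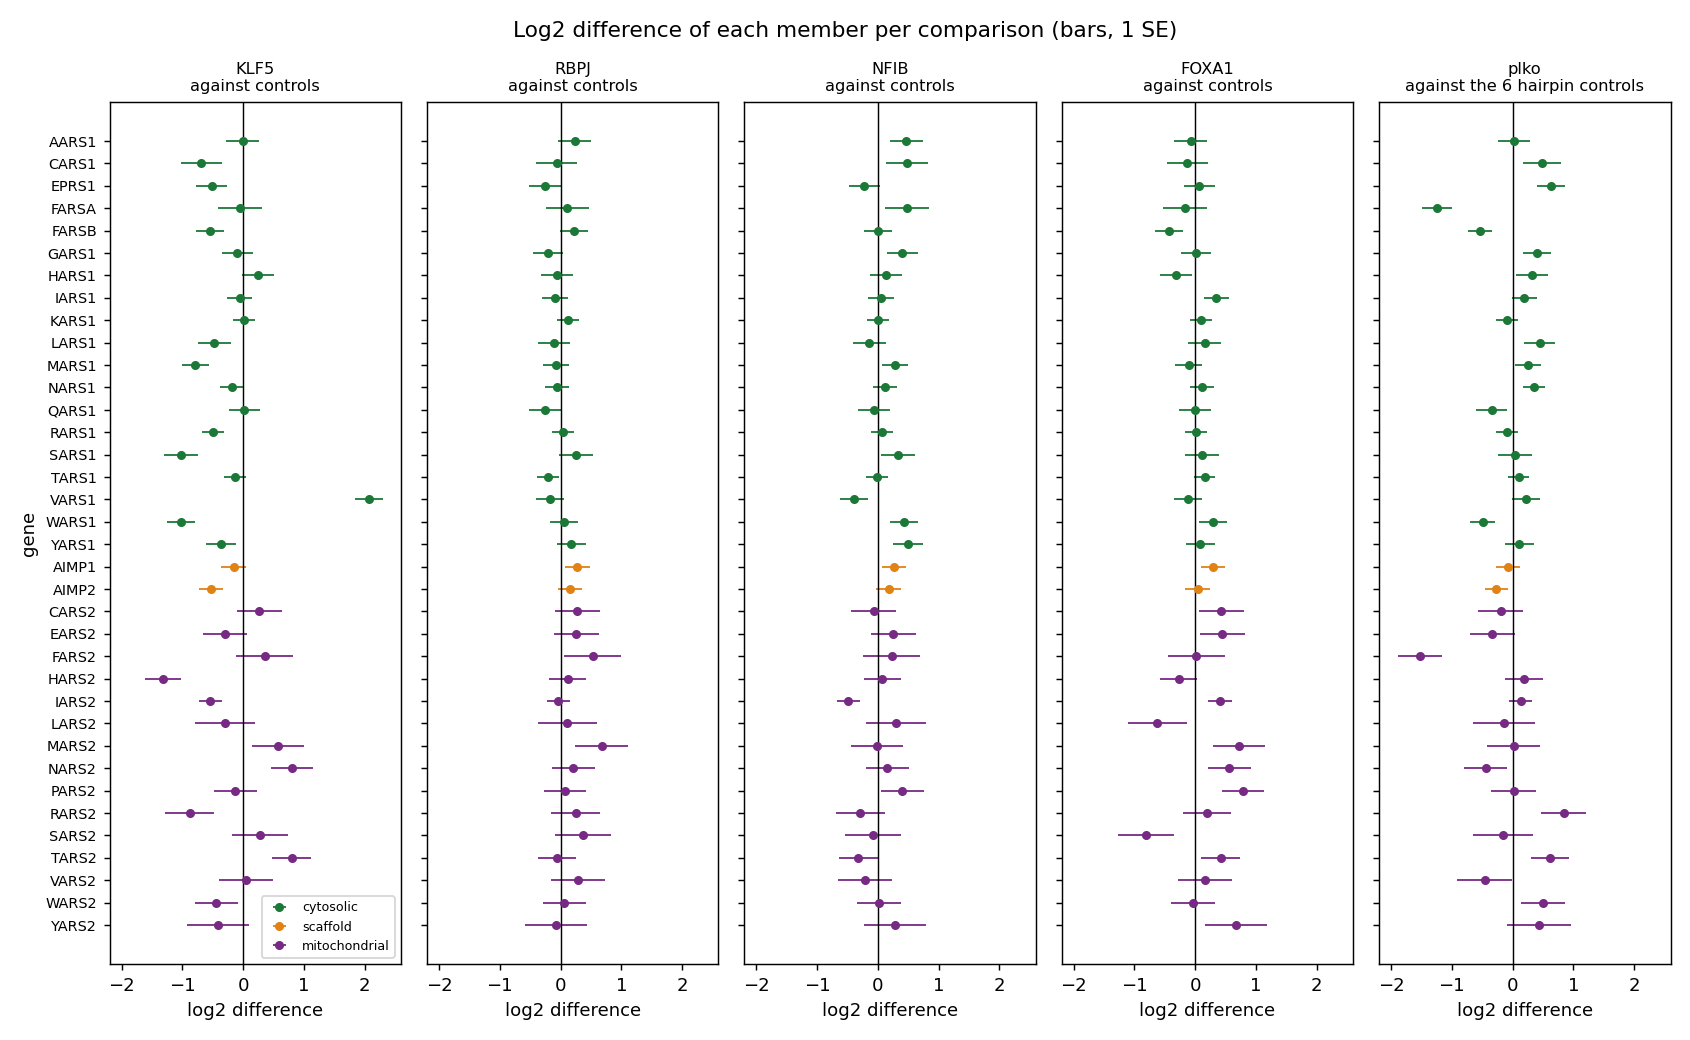
Log2 difference of each member with its standard error in the comparisons, 1 point per gene, the cytosolic, mitochondrial and scaffold members marked apart. VARS1 stands alone at 2.07 with KLF5 hairpins, and in the plko comparison FARSA (-1.24) and FARS2 (-1.53) are the lowest.

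The control libraries themselves differed. Against the 6 hairpin controls, the plko pair had 7.5% of all genes called, 1.88% higher and 5.63% lower. Among the members 0 rose and 2 fell, a share near that of all genes, so the count does not set the members apart. FARSA, the catalytic alpha subunit of cytosolic phenylalanine-tRNA synthetase, was at 35.30 and 39.03 with plko. The hairpin controls ran from 73.95 through a median of 92.58 to 102.0, with no overlap. FARSA fell by 1.24 ± 0.25 (limma adjusted p = 0.00489). FARS2, the mitochondrial phenylalanine enzyme, was at 2.206 and 6.815 against 10.78, 12.76 and 17.65 as lowest, median and highest hairpin control. It fell by 1.53 ± 0.36 (limma adjusted p = 0.0124), and its plko 1 value rests on a single read. Without plko 1 the genes called went from 812 to 131 and neither member passed, at -1.17 (limma adjusted p = 0.103) and -0.88 (limma adjusted p = 0.456). FARS2 did not pass by edgeR either (adjusted p = 0.0961).

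Other members of low or high rank in that comparison did not pass. FARSB, the subunit that pairs with FARSA, was at 99.28 and 101.0 against 125.4 to 162.9, below all 6 hairpin controls (difference -0.54 ± 0.20, limma adjusted p = 0.104). WARS1 and QARS1 were below all 6 as well, at -0.49 and -0.35. EPRS1 was at 324.3 and 175.3 against 146.2 to 183.3 (difference 0.63 ± 0.23, limma adjusted p = 0.0879). It passed without plko 2, at 1.08 (limma adjusted p = 0.0133), where the difference rests on plko 1 alone, and without either RBPJ library (limma adjusted p = 0.0409 and 0.0404). RARS2 (0.84) and TARS2 (0.62) were the other high members. The libraries of a group did not overlap for 5 members on the low side and 2 on the high side, against 12.3% and 9.94% of all genes. VARS1 (0.23) and VARS2 (-0.46) did not pass.

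The low phenylalanine genes of plko touch the target comparisons. With plko as the only controls, FARSA differed by 1.41 with NFIB hairpins (limma adjusted p = 0.0108) and FARS2 by 1.68 with RBPJ hairpins (limma adjusted p = 0.0422). Against all 8 controls these differences were 0.48 and 0.53 and did not pass.

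A second pattern ran between the libraries of a pair. All 12 ATF4-linked synthetases were higher in plko 1 than in plko 2, with a median log2 difference of 0.57. The same held for 12 of 12 between the library labelled RBPJ 1 and RBPJ 2 (0.73) and between NFIB 1 and NFIB 2 (0.42). Of all genes tested, 51.28%, 50.91% and 52.06% were higher in the first library of these pairs. The 6 other cytosolic enzymes apart from VARS1 did not follow: 2, 0 and 3 of 6 were higher in the first library. In the other 5 pairs, 3 to 9 of the 12 were. The pattern was noticed in these values and has no replicate of its own, so no test is given.

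The single genes show its size. SARS1 was at 233.9 in plko 1 and 94.80 in plko 2, at 226.3 in the library labelled RBPJ 1 and 134.2 in RBPJ 2, and at 251.5 in NFIB 1 and 133.7 in NFIB 2. GARS1, the glycine enzyme, was at 463.3 and 293.7, 384.2 and 175.0, and 489.3 and 318.5 in the same order. AARS1, the alanine enzyme, was at 167.7 and 81.79, 193.4 and 95.31, and 175.6 and 146.4. Across the 16 libraries these genes varied by 2.365-fold (AARS1) to 3.573-fold (SARS1). The lowest SARS1 value was that of KLF5 1 (70.38), outside these pairs. In the libraries other than KLF5, SARS1 ran from 94.80 to 251.5. Relative to the control mean, the median of the 12 was highest in plko 1 (0.49) and NFIB 1 (0.47) and lowest in KLF5 2 (-0.50), RBPJ 2 (-0.40) and KLF5 1 (-0.34). RBPJ 2 and KLF5 2 were thus alike in that median but not in each gene: WARS1 was at 101.5 in RBPJ 2 and 50.17 in KLF5 2, and GARS1 at 175.0 and 282.4.

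Amino acid synthesis genes, which ATF4 also induces, took similar values in these pairs. ASNS, asparagine synthetase, was at 368.4 in plko 1 and 110.9 in plko 2, at 278.5 in the library labelled RBPJ 1 and 25.60 in RBPJ 2, and at 291.1 in NFIB 1 and 157.8 in NFIB 2. Of the 19 tested genes of that list, 14, 17 and 14 were higher in the first library of these pairs. The shRFP, shLACZ and KLF5 pairs had 14, 17 and 14 of 19, and the shLUC and FOXA1 pairs 7 and 3, so the counts alone do not set the former 3 pairs apart. Their median differences were 0.57, 0.95 and 0.40, against 0.08, 0.31, 0.36, -0.06 and -0.36 in the shRFP, shLACZ, KLF5, shLUC and FOXA1 pairs. PSAT1, of serine synthesis, was at 878.1 and 393.4, 598.7 and 105.7, and 630.1 and 383.0. PHGDH, the first enzyme of that route, followed in the plko pair (549.3 and 266.4) and the RBPJ pair (582.3 and 109.1) but was at 497.5 and 515.9 in the NFIB pair. ATF4 itself was at 357.4 and 204.5, 300.9 and 175.0, and 356.7 and 143.9.

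In the KLF5 libraries the 19 amino acid synthesis genes had a median difference from the controls of -0.34, near the -0.42 of the ATF4-linked synthetases. Of the 19, 8 in KLF5 1 and 6 in KLF5 2 lay above the control mean. ASNS was at 83.17 and 64.17, PHGDH at 386.7 and 386.2, and PSAT1 at 439.3 and 320.9. All 6 values lay inside the control ranges of 54.20 to 368.4, 266.4 to 549.3 and 232.6 to 878.1. ATF4 was at 135.1 and 154.0, also inside its controls.

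**Figure D4:**
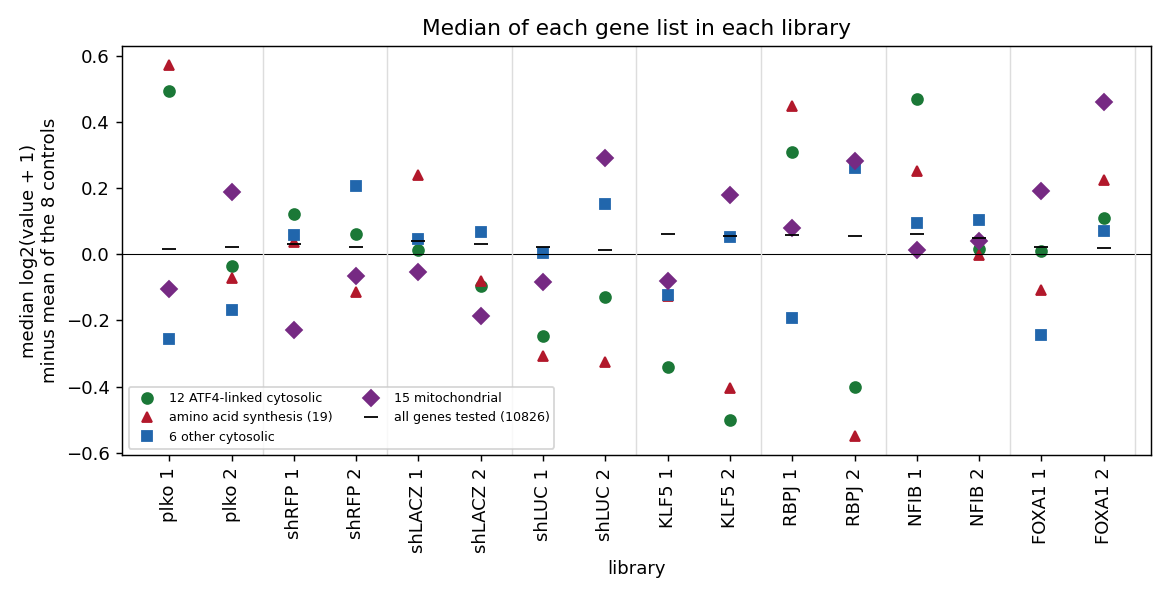
Median log2(value + 1) minus the control mean in each library for the ATF4-linked, other cytosolic and mitochondrial synthetases, the amino acid synthesis genes and all genes tested. The ATF4-linked genes reach 0.49 in plko 1 and 0.47 in NFIB 1 and are at -0.50 in KLF5 2.

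Partner genes of charging were taken as lists. With KLF5 hairpins 2.3% of all genes were called higher and 3.07% lower, and the counts of the lists stand beside these shares. With KLF5 hairpins, and read as a description for the same reason as above, the mitochondrial charging partners had 0 of 10 called and the stress and growth regulators 0 of 22. Of 59 tested tRNA processing and modification genes, POP7, a subunit of RNase P, was higher (0.99 ± 0.22) and CLP1, a kinase of the tRNA splicing machinery, lower (-1.23 ± 0.26). Of 25 initiation factors 0 were higher and 2 lower: EIF3E (-1.29 ± 0.23), a subunit of eIF3, and EIF2B2 (-1.41 ± 0.33), a subunit of the exchange factor of eIF2. TUFM, the mitochondrial elongation factor that carries charged tRNA to the ribosome, was at 66.11 and 64.17 against 70.01 to 249.9. It and EEF1A1, its cytosolic counterpart, were the 2 of 12 elongation factors that were lower. TUFM was lower in plko too, as described below. EEF1A1 has many processed pseudogenes, and its value is uncertain for that reason. Of 19 amino acid synthesis genes, BCAT2, a branched-chain aminotransferase that acts on valine, was higher at 130.8 and 86.34 against 31.14 to 63.36. GOT2, the mitochondrial aspartate aminotransferase, was lower at 59.71 and 71.17 against 84.88 to 142.9.

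With RBPJ, NFIB and FOXA1 hairpins, 0 genes of these 6 lists were called by limma. Of all genes only 0.0277%, 0.00924% and 0.00924% were called, so that count does not set the lists apart. In the plko comparison several genes of the lists were called. Their counts stand beside 5.63% of all genes lower and 1.88% higher. Of 59 tRNA processing and modification genes 10 fell and 0 rose. DUS1L, a dihydrouridine synthase, fell by 1.24 ± 0.25 (limma adjusted p = 0.00488), ADAT1, a tRNA adenosine deaminase, by 1.02 ± 0.22 (limma adjusted p = 0.0062), and LAGE3 and TRMT61A by 0.89 and 1.5. Of 12 elongation factors 4 fell and 1 rose: TUFM fell by 1.33 ± 0.22 (limma adjusted p = 8.81e-04) and TSFM, its exchange factor, by 0.81, while EEF1B2 rose by 0.82. EIF3B, EIF6 and EIF3G were the 3 of 25 initiation factors that fell, by 1.26, 1.38 and 0.90. PYCR3, of proline synthesis, fell by 1.88 ± 0.32 (limma adjusted p = 9.48e-04) and ATF5, a stress-induced relative of ATF4, by 1.12. The mitochondrial charging partners had 0 of 10 called. The keratin gene KRT8 fell as well, by 3.54, and the epithelial markers had 3 of 12 lower in plko, so the plko pair stands apart beyond the synthetase genes. Most of these calls rest on plko 1, the library with the fewest reads: without it 131 genes in all were called, and of the lists 0 tRNA processing genes, 2 elongation factors (EEF1A1 and TUFM), 1 initiation factor (EIF6), PYCR3 and 1 epithelial marker (KRT8) were lower. Without plko 2, 1115 genes were called, with 10 tRNA processing genes, 3 elongation factors, 3 initiation factors and 5 epithelial markers lower.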

How the data were processed

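The authors deposited 1 table of normalised signal per gene for HCC70 libraries made by a 3′-end protocol with linear amplification, per the labels' protocols. The name of the table states DESeq2 normalisation. The submitters' processing notes name GRCh37. For the aligner, counter, annotation and filters, nothing is stated in the sources used here. The deposited signal gives whole reads for 100% of values within 0.05 of a read. Table columns matching no sample described here (2) were not used. Libraries were barcoded in batches and some were run again, per the labels, without saying which. Identifiers were matched to symbols for 11259 of 11282 genes.

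Genes that reached a value of 5 in 2 or more libraries were analysed (10826, with 456 removed). limma 3.58.1 (R 4.3.3) with a mean-variance trend was fitted to log2(value + 1) over all 16 libraries, 2-sided, with Benjamini-Hochberg adjustment over all genes tested and a threshold of 0.05. The script was tested on simulated data. Members, lists and tests were chosen with earlier results of these data known. Named with values were VARS1, VARS2, each member past the threshold in any of 6 comparisons and the 3 highest and 3 lowest differences per comparison, and up to 4 past-threshold genes of smallest p per list. Examples in the pair-to-pair and KLF5 paragraphs were chosen after their values were seen. Alternatives were edgeR 4.0.16 and DESeq2 1.42.0 on recovered reads, other pseudocounts, filters, scalings and controls, and leaving out each library. The list counts without either plko library were added after seeing the data.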

Additional observations from a re-analysis of the deposited data

Results flagged for a closer look

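In the 8 control libraries, 6 of 36 members had 1 library far from the rest by Dixon's test on the gap over the range. Chance flags about 1 in 20 groups. Of the 6, 4 had plko 1 as the high library, which is also the library with the fewest reads. EPRS1 was at 324.3 in plko 1, with the next control at 183.3. GARS1 was at 463.3 in plko 1, with the next control at 310.2. NARS1 was at 222.8 in plko 1, with the next control at 173.5. RARS2 was at 22.06 in plko 1, with the next control at 12.39. MARS2 and SARS2, both mitochondrial and read from few molecules, were high in shLUC 2, at 26.53 against a next value of 11.98 and at 10.20 against 5.672.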

How the results depend on the processing

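The number of all genes called with KLF5 hairpins went from 581 to 353 by limma without trend. It was 1194 with the 6 hairpin controls and 372 with plko as the only controls. The members called, with VARS1 counted among them here and below, went from 5 to 3 without trend and 8 with the 6 hairpin controls. Leaving out 1 library gave 87 to 881 genes and 1 to 5 members. Against the other 3 targets, the count went from 716 to 449 genes without trend, and to 104 to 1039 genes and 2 to 6 members with 1 library left out. With RBPJ hairpins, 3 genes became 0 by edgeR, 26 by DESeq2, 0 without trend and 273 with plko as the only controls, where 1 member (FARS2) was called. With NFIB hairpins, 1 gene became 0 by edgeR, 10 by DESeq2, 0 without trend and 571 with plko as the only controls, where 1 member (FARSA) was called. With FOXA1 hairpins, 1 gene became 2 with a pseudocount of 5, 3 by DESeq2, 2 by quantile normalization, 0 without trend and 70 with plko as the only controls. Leaving out 1 library gave 0 to 142 (142 without the library labelled RBPJ 1), 0 to 2 and 0 to 26 genes for these 3 targets and 0 to 0 members in each. For plko against the 6 hairpin controls, 812 genes became 382 by edgeR, 496 by DESeq2 and 377 without trend, and 2 members became 1 with a minimum value of 20, by edgeR and by DESeq2. Leaving out 1 library gave 131 to 1115 genes and 0 to 3 members. The cause was not tested, beyond the smaller number of libraries when 1 is left out. Over 1266 refits of 47 member results, 1228 stayed on their side of the threshold, 32 no longer passed, 6 newly passed and 0 changed sign while past it. The 1228 include VARS1 with KLF5 hairpins, whose values chose the members. Its refits were counted as unchanged when the difference moved by less than the SD of the libraries compared with. Changes of filter and omitted libraries outside a comparison are also counted, and these cannot move a difference, only its p-value.

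Replicate numbers did not pair the libraries: same-numbered libraries had correlated deviations over 0.1 in 3 of 28 pairs of groups (range -0.195 to 0.216). With the number as a replicate block, 5 members, VARS1 among them, were called with KLF5 hairpins, as without it. The block moved no count of members in the other comparisons. The mitochondrial enzymes, with a middle value of 15 reads per library against 149.5 for cytosolic ones, had a median control spread of 35.89% of the mean against 21.23%. The part of depth in that was not tested. A fit that leaves out 1 library of a target assumes that the remaining 1 varies like the other groups.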
